A study of Mus musculus with 12 samples.

Results

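Milk protein and secretory epithelium genes were followed as 9 genes, taken by symbol from a count table of 54347 genes in mouse PYMT cells. They were the caseins Csn1s1, Csn1s2a, Csn2 and Csn3, the whey proteins Wap and Lalba, and the secreted or transporting proteins Ltf, Pip and Pigr. PYMT is the submitters' name for the cell line, and it is also the name of a mouse model in which a viral oncogene, polyoma middle T, causes mammary tumours. There were 4 groups of 3 libraries each. BMP4-TGFB2 cells received both ligands, TGFB2 cells and BMP4 cells received 1 ligand each, and NT cells received neither. Each ligand was given at 5 ng/mL over 3 days, and cells were taken out of matrigel 2 days after the medium was replaced. The study asked which programmes accompany dormancy under these ligands. The labels name no lactogenic hormone in any group, do not say whether the line is 1 clone or whether the fresh medium held ligand, and call the replicates biological without further detail. The p-values therefore reflect the spread among these libraries, which may be technical in part.

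Milk proteins are made by the secretory luminal cells of the mammary gland. Prolactin binds its receptor and, through the kinase JAK2, activates the transcription factor STAT5, which together with ELF5 and the glucocorticoid receptor drives casein and whey genes. Caseins form the micelles of milk, whereas lactoferrin, PIP and the polymeric immunoglobulin receptor also serve mucosal defence and are made outside lactation too. TGF-beta is known to restrain lactogenic differentiation in the mouse mammary gland.

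STAT5 binds palindromes of the form TTCNNNGAA, so the bases before each gene's start were searched for it. RefSeq promoter sequences (GRCm38.p6) were at hand for 8 of the 9 members, Csn3 being the other one, and the 250 bases upstream of each start were read. The motif occurred in 3 of these 8 members, namely Csn1s1, Csn2 and Pip, and in 7.02% of 32851 promoters of the same length. Distances here are from the RefSeq starts. For Csn2 the GENCODE annotation starts further upstream, so 205 of the 250 bases, the match among them, lie in an annotated exon. The same annotation places 38 of the bases searched in an exon for Lalba, 21 for Ltf and 14 for Pip. The matches, in capitals with 10 bases on either side, are shown because they set the strongly and barely detected caseins side by side. They start 100 bases before the Csn1s1 start (plus strand, chr5:87666098-87666126), 93 bases before the RefSeq start of Csn2 (minus strand, chr5:87699500-87699528), and 140 and 42 bases before the Pip start (plus strand, chr6:41847399-41847427 and chr6:41847497-41847525).
Csn1s1: tttgtaacaaTTCTTAGAAtttatgtaaa
Csn2: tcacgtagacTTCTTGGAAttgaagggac
Pip, distal: acatttttttTTCATAGAAataacaaact
Pip, proximal: gcttttctgcTTCTGTGAActgtatataa
The whole upstream stretches of Csn1s1 (plus strand, chr5:87665958-87666207), Ltf (plus strand, chr9:111019042-111019291) and Pip (plus strand, chr6:41847299-41847548) are shown for a casein, the most abundant member and the member with 2 matches, with motif matches in capitals.
Csn1s1: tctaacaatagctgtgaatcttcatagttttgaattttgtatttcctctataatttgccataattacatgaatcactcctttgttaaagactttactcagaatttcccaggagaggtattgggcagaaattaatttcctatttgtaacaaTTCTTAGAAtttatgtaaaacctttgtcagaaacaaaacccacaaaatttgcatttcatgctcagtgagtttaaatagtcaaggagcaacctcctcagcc
Ltf: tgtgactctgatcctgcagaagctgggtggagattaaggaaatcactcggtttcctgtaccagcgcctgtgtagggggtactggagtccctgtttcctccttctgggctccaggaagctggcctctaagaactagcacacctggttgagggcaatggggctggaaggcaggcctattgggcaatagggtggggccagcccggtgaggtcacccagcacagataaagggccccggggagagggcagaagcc
Pip: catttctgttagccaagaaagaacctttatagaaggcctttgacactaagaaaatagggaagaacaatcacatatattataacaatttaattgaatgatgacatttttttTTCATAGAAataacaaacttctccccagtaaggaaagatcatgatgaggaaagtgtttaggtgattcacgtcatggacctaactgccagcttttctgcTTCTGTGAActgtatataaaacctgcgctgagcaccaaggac
No TTCNNNGAA match lay in the Ltf, Pigr, Wap, Lalba or Csn1s2a stretch. The same palindrome with 4 free bases in place of 3 occurred in 1 member, Csn2, and in 5.85% of promoters, at no overlap with the first motif. The SMAD-type motif CAGAC, read on both strands, occurred in 4 members and in 42.2% of promoters, the SMAD-type motif GGCGCC in 0 members and in 9.59%, and the ETS-type motif GGAAG in 5 members and in 64.1%. These are matches of letters and not shown to be bound sites.

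Libraries held 28543062 to 42167651 estimated counts. All 12 luminal epithelium markers were above 3 counts in every group, and their summed level was 6600 to 8548 CPM (a gene's counts scaled to the library total) in BMP4-TGFB2 cells, 6766 to 8534 in TGFB2 cells, 5991 to 6632 in BMP4 cells and 5630 to 6467 in NT cells. Of the 12 luminal markers, 3 fell and 1 rose with both ligands by edgeR, and 4 fell and 1 rose with TGFB2. With BMP4, 0 fell and 0 rose. Among all tested genes 12.9%, 11.1% and 2.25% fell and 13.3%, 11.3% and 3.21% rose with both ligands, TGFB2 and BMP4. Cdh1, Krt19 and Esrp1 fell by 0.50, 0.68 and 0.34 with both ligands on the log2 scale. With TGFB2 they fell by 0.29, 0.71 and 0.38, and Grhl2 by 0.45. Cldn4 rose by 2.96 with both ligands and 2.73 with TGFB2. Markers of fibroblasts, adipocytes, leukocytes, endothelium and erythroid cells summed to at most 32.6, 3.02, 11.6, 4.12 and 30.9 CPM in any library. Some of these low markers rose with the ligands. Fibroblast markers summed to 14.9 to 29.1 CPM in BMP4-TGFB2, 19.8 to 32.6 in TGFB2, 7.48 to 20.9 in BMP4 and 5.13 to 13.5 CPM in NT cells. Of 7 tested, 3 rose with both ligands, 4 with TGFB2 and 0 with BMP4 by edgeR (Col1a1 by 1.73 with both ligands and 2.14 with TGFB2 on the log2 scale). Leukocyte markers summed to 8.27 to 11.6, 8.49 to 11.1, 6.66 to 9.3 and 2.4 to 4.9 CPM in the same order of groups; of 4 tested, 1 rose in each ligand group, Csf1r (by 3.99, 3.65 and 2.62 on the log2 scale). Of 5 erythroid markers tested, Hba-a2 rose with TGFB2 (by 2.29 on the log2 scale, adjusted p = 0.0139). The part of these markers in the members' falls was not tested. The libraries separated by replicate number on the second principal component of log2 CPM, which held 14.4% of the variance: replicate 1 of all groups lay at 37.5 to 49.7, replicate 2 at -11.8 to -5.61 and replicate 3 at -40.1 to -27.6. Results that changed without the replicate 1 libraries are given beside the result. In bulk RNA, fewer cells of a type and less RNA per cell cannot be told apart.

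A floor of 3 counts per library corresponded to 0.0711 to 0.105 CPM. Of the 9 members, 5 passed the filter on low counts and were tested: Csn1s1, Csn3, Ltf, Pip and Pigr. Lalba, Wap, Csn2 and Csn1s2a did not pass and are given as counts. Together the members made up 0.00724% to 0.0129% of all counts in BMP4-TGFB2 libraries, 0.00807% to 0.0109% in TGFB2 libraries, 0.116% to 0.237% in BMP4 libraries and 0.765% to 1.49% in NT libraries. Of the members' summed counts, Ltf supplied 89.8% to 98.5% in every library.

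**Figure D1:**
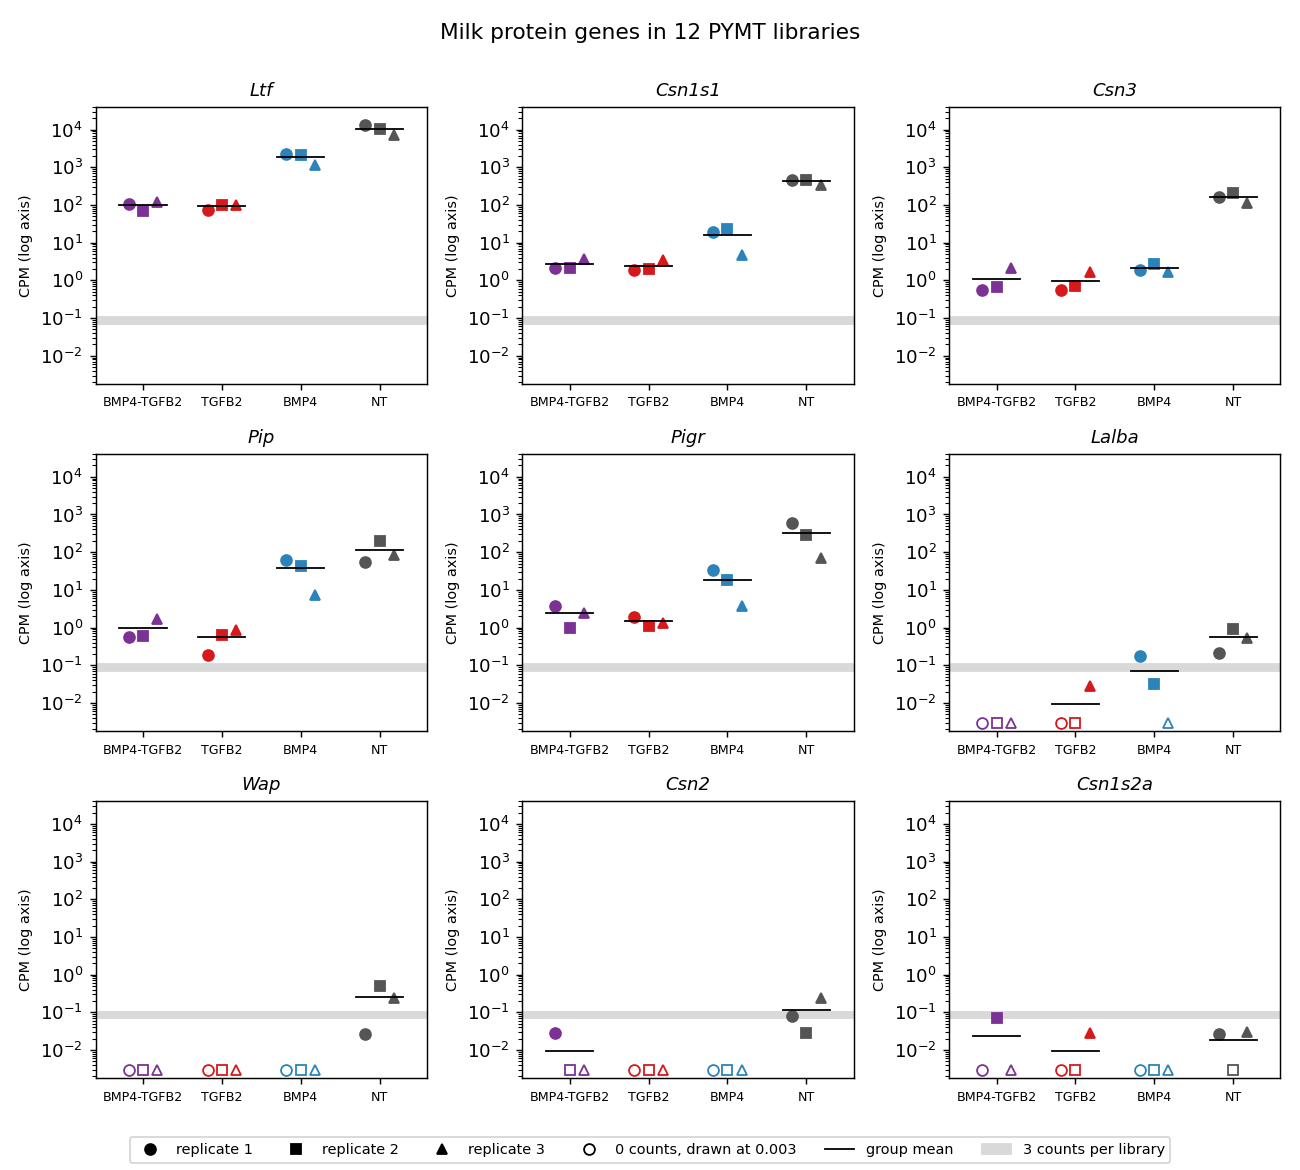
CPM of each member in each library on a log axis, with groups from left to right BMP4-TGFB2, TGFB2, BMP4 and NT, 3 libraries each. Points are libraries, the line is the group mean, open points are libraries with 0 counts, and the grey band marks 3 counts per library. The Ltf, Csn1s1, Csn3 and Pigr points of BMP4-TGFB2 and TGFB2 cells overlap and lie far below those of NT cells, while BMP4 means lie in between with some overlap for Csn3 and Pigr, and Lalba, Wap, Csn2 and Csn1s2a lie near the band or at 0.

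Csn1s1, the gene of alpha-S1 casein, was the most abundant casein. It stood at 2.12, 2.14 and 3.78 CPM in BMP4-TGFB2 cells, 1.94, 2.04 and 3.41 CPM in TGFB2 cells, 19, 23.8 and 4.78 CPM in BMP4 cells, and 469, 463 and 345 CPM in NT cells, for replicates 1 to 3. The BMP4-TGFB2 and TGFB2 libraries overlapped, every BMP4 library lay above both, and every NT library lay above all others. Relative to NT, Csn1s1 changed by -7.30 ± 0.58 on the log2 scale in BMP4-TGFB2 cells (SE, adjusted p = 1.35e-05), by -7.45 ± 0.59 in TGFB2 cells (adjusted p = 1.85e-05), which is 175-fold lower, and by -4.73 ± 0.51 in BMP4 cells (adjusted p = 0.000729), which is 26.6-fold lower. These and the following adjusted p-values come from the quasi-likelihood test of edgeR with Benjamini-Hochberg adjustment over 15319 genes, in 1 model of all 12 libraries.

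Csn3 encodes kappa casein, which caps and stabilises the micelle. It stood at 0.551, 0.666 and 2.16 CPM in BMP4-TGFB2 cells, 0.569, 0.724 and 1.69 CPM in TGFB2 cells, 1.90, 2.77 and 1.64 CPM in BMP4 cells, and 160, 214 and 115 CPM in NT cells. Here the 3 ligand groups overlapped one another, and only NT stood apart. The log2 fold change against NT was -7.17 ± 0.58 in BMP4-TGFB2 cells (adjusted p = 1.5e-05), -7.38 ± 0.59 in TGFB2 cells (adjusted p = 1.85e-05) and -6.26 ± 0.55 in BMP4 cells (adjusted p = 0.000243). The BMP4 cells thus held 76.8-fold less Csn3 than NT cells, against 26.6-fold less Csn1s1; the difference between these 2 genes was not tested.

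The other caseins were near the counting floor even in NT cells. Csn2, beta casein, a main casein of mouse milk, had 1, 0 and 0 counts in BMP4-TGFB2 libraries, 0 in all TGFB2 and all BMP4 libraries, and 3, 1 and 8 counts in NT libraries. Summed over groups, and against a floor of 3 counts in the group, it was at least 4.05-fold higher in NT than in TGFB2 cells and at least 3.89-fold higher in NT than in BMP4 cells. The ratio of BMP4-TGFB2 to NT was 0.0927, with an exact 95% counting interval of 0.00217 to 0.627. Csn1s2a, an alpha-S2-type casein, summed to 2 counts in BMP4-TGFB2, 1 in TGFB2, 0 in BMP4 and 2 in NT cells, at or under the floor everywhere, so no fold is given. The intervals cover counting error only. The at-least folds, here and for the whey genes, set the ligand group at 3 counts and take the NT counts as exact. They are therefore not lower confidence limits.

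The caseins lie together on chromosome 5 (GRCm38.p6), from the start of Csn1s1 at 87666208 to the end of Csn3 at 87932665, a span of 266.5 kb. Csn1s1 (chr5:87666208-87682578), Csn1s2a (chr5:87774567-87788797) and Csn3 (chr5:87925579-87932665) are on the plus strand and Csn2 (chr5:87692624-87699630) is on the minus strand. In TPM, which scales for length, Csn1s1 averaged 3.32 ± 1.15 in BMP4-TGFB2, 3.13 ± 1.11 in TGFB2, 19.8 ± 12.9 in BMP4 and 543 ± 89.1 in NT cells (SD, n = 3), and Csn3 averaged 2.07 ± 1.63, 1.84 ± 1.18, 3.87 ± 1.21 and 303 ± 85.8 TPM in the same order of groups. Csn2, whose start is 33.4 kb from that of Csn1s1, averaged 0.296 ± 0.334 TPM in NT cells. Of the genes between the 2 ends, Csn1s2b and Prr27 had 0 counts in all libraries, and Odam had 2 counts in BMP4-TGFB2, 0 in TGFB2, 0 in BMP4 and 4 in NT cells. Thus, in NT cells, the genes at the 2 ends of the locus were the only protein-coding genes of the span with a mean above 1 TPM. No member shared exon bases with another annotated gene.

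**Figure D2:**
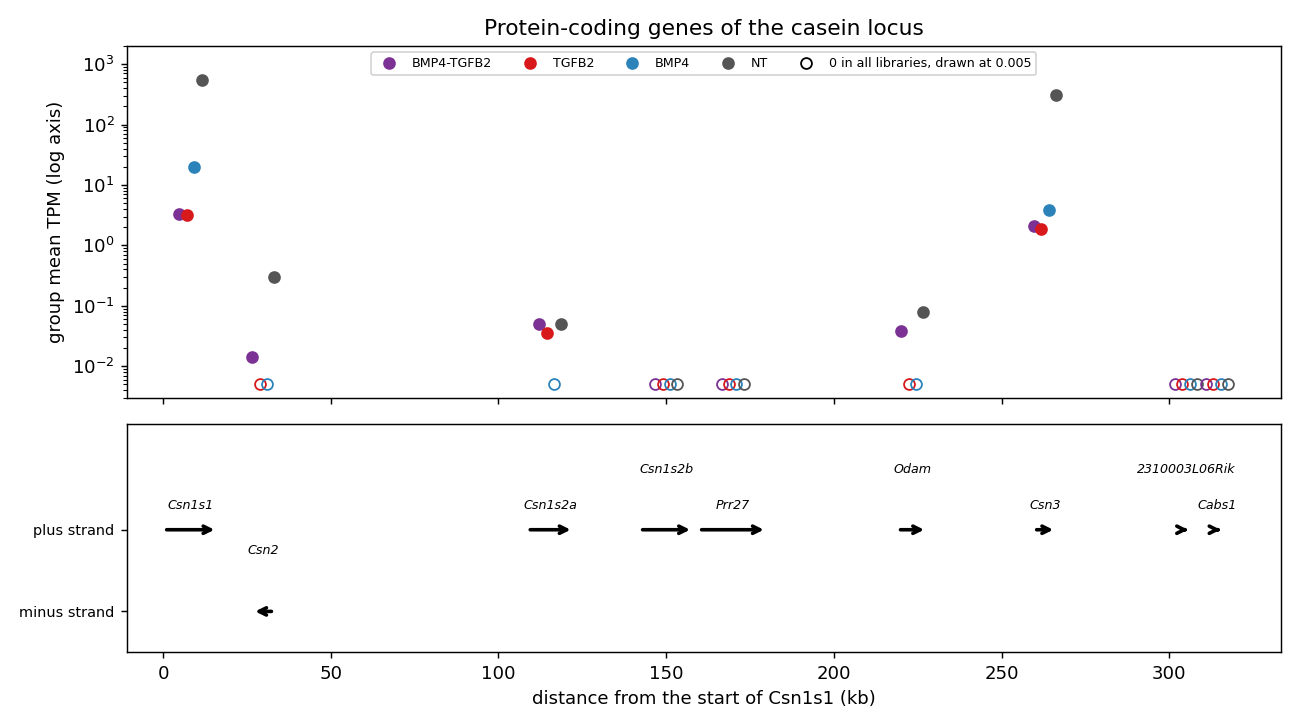
Upper panel, group mean TPM (log axis) of each protein-coding gene of the casein locus, placed by its distance in kb from the start of Csn1s1, with groups BMP4-TGFB2, TGFB2, BMP4 and NT from left to right; open points are groups with 0 in all libraries. Lower panel, gene positions and strands; only Csn1s1 and Csn3, at the 2 ends, rise above 1 TPM.

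In a list of 16 casein cluster neighbours and salivary relatives, 14 were in the table and 2, Gc and Jchain, passed the filter. Gc, a vitamin D carrier of plasma, and Jchain, the joining chain of polymeric immunoglobulins that PIGR transports, did not pass the test in any comparison against NT. Jchain stood at 0 to 0.110 CPM in BMP4-TGFB2, 0.0987 to 0.761 in TGFB2, 0.0254 to 0.243 in BMP4 and 0.0299 to 0.399 CPM in NT cells.

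The whey genes were low throughout. Lalba, alpha-lactalbumin, the regulator of lactose synthase (chr15:98480400-98482721, minus strand), had 0, 0 and 0 counts in BMP4-TGFB2 libraries, 0, 0 and 1 in TGFB2 libraries, 7, 1 and 0 in BMP4 libraries, and 8, 32 and 18 in NT libraries. Every NT library lay above every ligand-treated one, but NT replicate 1 only narrowly so over BMP4 replicate 1 (0.213 against 0.177 CPM). The summed ratio of TGFB2 to NT was 0.017, with an exact 95% interval of 0.000424 to 0.0987, and Lalba was at least 17.4-fold higher in NT than in BMP4-TGFB2 cells. Without the filter, over 30302 genes, Lalba passed for BMP4-TGFB2 (adjusted p = 0.00379) and TGFB2 (adjusted p = 0.012) but not for BMP4 (adjusted p = 0.299) against NT. Wap, whey acidic protein (chr11:6635482-6638637, minus strand), had 0 counts in all 9 ligand-treated libraries and 1, 18 and 8 counts in NT libraries. It was at least 8.09-fold, 9.12-fold and 8.75-fold higher in NT than in BMP4-TGFB2, TGFB2 and BMP4 cells. Tested without the filter, Wap did not pass against NT with both ligands (adjusted p = 0.0543), TGFB2 (adjusted p = 0.053) or BMP4 (adjusted p = 0.126), and neither did Csn2 (adjusted p = 0.427, 0.18 and 0.361).

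Ltf, lactoferrin, an iron-binding antimicrobial protein of milk and neutrophils (chr9:111019271-111042767, plus strand), was the dominant member. It stood at 107, 67.9 and 119 CPM in BMP4-TGFB2 cells, 76.1, 98.8 and 102 CPM in TGFB2 cells, 2252, 2184 and 1142 CPM in BMP4 cells, and 13612, 10228 and 7036 CPM in NT cells. The BMP4-TGFB2 and TGFB2 libraries overlapped, and BMP4 and NT libraries formed separate higher levels. Ranked by TPM among all genes, Ltf came 1489th to 2358th in BMP4-TGFB2 libraries, 1575th to 2510th in TGFB2 libraries, 58th to 162nd in BMP4 libraries, and 3rd or 4th in NT libraries. Against NT, its log2 fold change was -6.70 ± 0.38 in BMP4-TGFB2 cells (adjusted p = 3.25e-06), -6.82 ± 0.39 in TGFB2 cells (adjusted p = 2.9e-06) and -2.45 ± 0.31 in BMP4 cells (adjusted p = 0.00159). These are falls of 104-fold, 113-fold and 5.46-fold.

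Pip, prolactin-induced protein, a secreted glycoprotein of apocrine and mammary epithelium (chr6:41847535-41852065, plus strand), stood at 0.578, 0.596 and 1.71 CPM in BMP4-TGFB2 cells, 0.190, 0.625 and 0.846 CPM in TGFB2 cells, 61.8, 42.4 and 7.33 CPM in BMP4 cells, and 54.8, 204 and 84.3 CPM in NT cells. The BMP4 and NT libraries overlapped, and the BMP4 library of replicate 1 was above the NT library of replicate 1. The log2 fold change against NT was -6.89 ± 0.92 in BMP4-TGFB2 cells (adjusted p = 0.000294), -7.74 ± 0.97 in TGFB2 cells (adjusted p = 0.000258) and -1.61 ± 0.70 in BMP4 cells (adjusted p = 0.241, 95% interval -3.15 to -0.08). Pip with BMP4 was the 1 value among the tested members against NT that did not pass; without the filter it did, at an adjusted p of 0.0321.

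Pigr, the polymeric immunoglobulin receptor, carries IgA across the epithelium into milk (chr1:130826684-130852249, plus strand). It stood at 3.80, 0.981 and 2.36 CPM in BMP4-TGFB2 cells, 1.94, 1.09 and 1.35 CPM in TGFB2 cells, 34.0, 17.9 and 3.71 CPM in BMP4 cells, and 601, 283 and 70.5 CPM in NT cells. The lowest BMP4 library fell below the highest BMP4-TGFB2 library, and every NT library lay above all ligand-treated ones. Taken by replicate number, the Pigr level was 0.632%, 0.346% and 3.34% of the NT level in BMP4-TGFB2 cells, 0.324%, 0.384% and 1.92% in TGFB2 cells, and 5.65%, 6.32% and 5.27% in BMP4 cells. The replicate 3 share was thus highest with TGFB2, alone or with BMP4, and lowest with BMP4 alone. The NT level of replicate 3, 70.5 CPM, was the lowest in NT cells. In TGFB2 and in BMP4-TGFB2 cells, the replicate 3 level lay between those of replicates 1 and 2. The log2 fold change against NT was -7.02 ± 1.0 in BMP4-TGFB2 cells (adjusted p = 0.000428), -7.76 ± 1.03 in TGFB2 cells (adjusted p = 0.000384) and -4.07 ± 0.85 in BMP4 cells (adjusted p = 0.0188). The BMP4 call did not hold when BMP4 replicate 2 (adjusted p = 0.0754) or NT replicate 2 (adjusted p = 0.0566) was left out, or with only the BMP4 and NT groups in the model (adjusted p = 0.0625).

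Counted over the tested members, 5 of 5 fell in BMP4-TGFB2 cells, where 12.9% of all tested genes fell and 13.3% rose. In TGFB2 cells 5 of 5 fell, where 11.1% of genes fell and 11.3% rose, and in BMP4 cells 4 of 5 fell, where 2.25% fell and 3.21% rose. The members' median log2 fold change was -7.02, -7.45 and -4.07 in BMP4-TGFB2, TGFB2 and BMP4 cells, against medians of 0.01, 0.01 and 0.00 over all tested genes. Sorted from the most negative log2 fold change among 15319 genes, the members came 21st to 35th with both ligands and 4th to 19th with TGFB2. With BMP4 they ranged more widely, with Csn3 10th, Csn1s1 21st, Pigr 28th, Ltf 97th and Pip 298th. The 3 comparisons share the NT libraries and are not independent of each other. The replicate number paired the BMP4 and NT libraries, and with it as a block 2356 genes in all passed for BMP4 against NT, compared with 835 without, while the members' calls stayed at 4.

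As a share of the NT mean, group means of the tested members spanned less with TGFB2 than with BMP4. With TGFB2, the levels were 0.571% for Csn1s1, 0.6% for Csn3, 0.886% for Ltf, 0.473% for Pip and 0.457% for Pigr. By replicate number, the TGFB2 shares ran from 0.307% (Pip, replicate 2) to 1.92% (Pigr, replicate 3). Replicate 3 had the highest share for each tested member, and for Csn1s1, Csn3, Ltf and Pigr also the lowest NT level. With BMP4, they were 3.75% for Csn1s1, 1.3% for Csn3, 18.3% for Ltf, 32.6% for Pip and 5.92% for Pigr. The Pip share was uneven: by replicate number it was 113%, 20.8% and 8.7%, and its log2 fold change ran from -2.56 without the replicate 1 libraries to -0.88 without NT replicate 2, passing in neither. By replicate number Csn1s1 with BMP4 was at 4.04%, 5.14% and 1.38% of NT, Csn3 at 1.19%, 1.29% and 1.42%, and Ltf at 16.5%, 21.4% and 16.2%. The residual TGFB2 level of Csn1s1 rested on 62 to 121 counts per library, well above the floor of 3. Those of Ltf, Pigr, Csn3 and Pip rested on 3003 to 3611, 33 to 82, 22 to 60 and 8 to 30 counts.

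BMP4 and TGFB2 cells differed directly in 4 of the 5 tested members, which were higher in BMP4 cells, in a comparison where 4.16% of genes rose. The log2 fold change of BMP4 over TGFB2 was 2.71 ± 0.49 for Csn1s1 (adjusted p = 0.00639), 4.37 ± 0.34 for Ltf (adjusted p = 0.000194), 6.13 ± 0.92 for Pip (adjusted p = 0.00253) and 3.68 ± 0.89 for Pigr (adjusted p = 0.0267). Csn3 did not pass (1.12 ± 0.52, adjusted p = 0.24, 95% interval -0.02 to 2.25). Without the replicate 1 libraries 2 members passed, Ltf and Pip, while Csn1s1 (2.39, adjusted p = 0.0926) and Pigr (3.15, adjusted p = 0.107) did not. The Pigr call was also lost when any TGFB2 library, BMP4 replicate 1 or BMP4 replicate 2 was left out, at adjusted p-values of 0.068 to 0.1, and with limma on log2 TPM (adjusted p = 0.0583), so that it was lost in 7 of 13 alternatives. With the replicate number as a block, 2998 genes passed in all, against 1200 without it.

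Adding BMP4 to TGFB2 gave no detectable change of any member. Of the genes tested by edgeR, 0 passed between BMP4-TGFB2 and TGFB2 cells, 0% of 15319, with 516 genes and 0 members at an unadjusted p under 0.05. DESeq2 called 51 genes, limma on log2 TPM 2 genes and edgeR with the replicate block 6 genes, with 0 members in each. The log2 fold changes of BMP4-TGFB2 over TGFB2 were 0.15 for Csn1s1 (95% interval -0.93 to 1.23), 0.21 for Csn3 (-0.99 to 1.41), 0.12 for Ltf (-0.54 to 0.78), 0.86 for Pip (-1.21 to 2.92) and 0.73 for Pigr (-1.2 to 2.66). The intervals were widest for Pip and Pigr.

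Adding TGFB2 to BMP4, by contrast, lowered 3 of the 5 tested members, where 4.98% of genes fell. BMP4-TGFB2 against BMP4 gave -2.56 ± 0.49 for Csn1s1 (adjusted p = 0.00776), -4.25 ± 0.34 for Ltf (adjusted p = 0.000188) and -5.27 ± 0.87 for Pip (adjusted p = 0.00373). Csn3 (-0.91 ± 0.52, adjusted p = 0.327, 95% interval -2.04 to 0.23) and Pigr (-2.95 ± 0.85, adjusted p = 0.0527) did not pass. With the replicate number as a block, which paired these libraries, Pigr passed (-2.67, adjusted p = 0.00871), and 3476 genes passed in all, against 1412. Pigr also passed with DESeq2, without the filter and without BMP4 replicate 3. Without the replicate 1 libraries 2 members passed, Csn1s1 being lost at an adjusted p of 0.0899.

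For 3 members, the combined effect was smaller than the product of the single effects. The interaction, which is the log2 effect of both ligands minus the sum of the single effects, was 4.89 ± 0.69 for Csn1s1 (adjusted p = 0.0249), 6.47 ± 0.74 for Csn3 (adjusted p = 0.0168) and 2.57 ± 0.43 for Ltf (adjusted p = 0.0499). These 3 members were among the 0.0522% of tested genes with a positive interaction call. Pip (2.47 ± 1.17, adjusted p = 0.611) and Pigr (4.81 ± 1.2, adjusted p = 0.187) did not pass. For Ltf, both ligands left 0.962% of the NT level, where the product of the single ratios is 0.162%, or 16.6 CPM, far above the counting floor. For Csn1s1, the product is 0.0214% of NT, or 0.0911 CPM, within the range of the 3-count floors, and for Csn3 it is 0.0127 CPM, below them; the observed values were 0.635% and 0.697% of NT. The interaction calls were sensitive: 0 members passed without the replicate 1 libraries, and leaving out single libraries gave 0 to 3 members, with 0 without TGFB2 replicate 2 or BMP4 replicate 1 and 1 without any BMP4-TGFB2 library, TGFB2 replicates 1 or 3, BMP4 replicate 2 or NT replicate 2. Over 18 alternatives, the Ltf call was lost in 14, among them RLE size factors (adjusted p = 0.0542), the Csn1s1 call in 10 and the Csn3 call in 3. Pigr passed in 3, with the replicate block (4.79, adjusted p = 0.0241), with DESeq2 and without the filter.

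**Figure D3:**
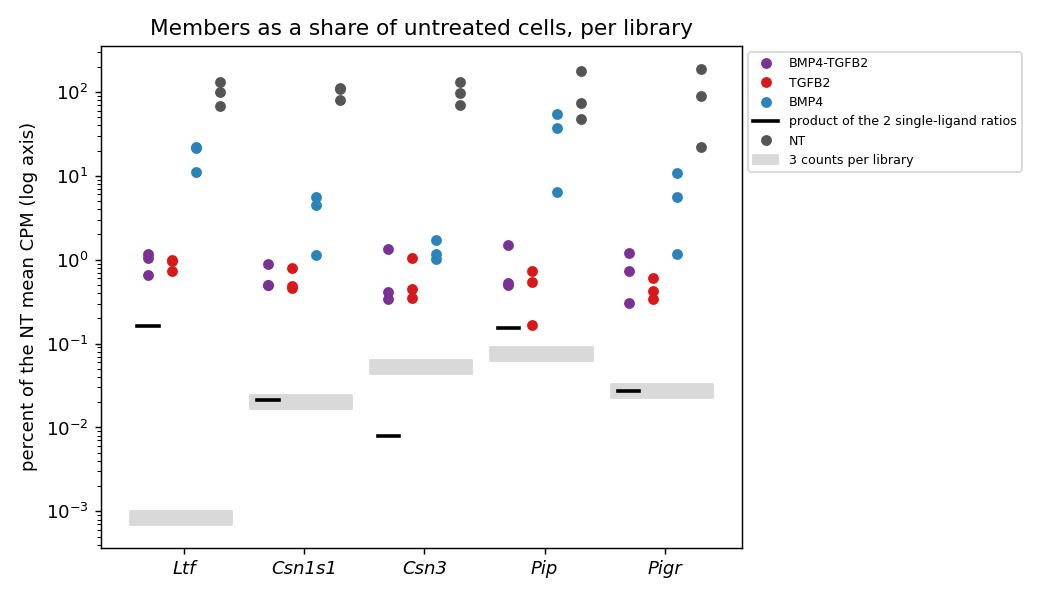
Level of the 5 tested members in each library as a percentage of the NT mean CPM (log axis), with BMP4-TGFB2, TGFB2, BMP4 and NT from left to right for each gene. The black bar is the product of the 2 single-ligand ratios and the grey block is the range of 3 counts per library; the BMP4-TGFB2 points overlap the TGFB2 points and lie above the product for each gene.

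The tested members moved together over the libraries. Pearson's r between pairs of members, on log2 CPM over the 12 libraries, was 0.81 for Csn3 and Pip to 0.97 for Csn1s1 with Csn3 and for Ltf with Pip. Those values largely repeat the group differences. With the group means taken out, r was 0.86 for Ltf with Pigr and 0.82 for Csn1s1 with Pip, but 0.19 for Csn3 with Pigr. The libraries share depth and culture, so these r values are descriptions.

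Several regulators upstream of milk genes fell too, by smaller log2 fold changes than the tested members had with TGFB2, alone or with BMP4; that difference was not tested. In a list of 35 lactogenic regulators, chosen with earlier results known, 33 were tested. With both ligands 13 fell and 2 rose, with TGFB2 12 fell and 2 rose, and with BMP4 5 fell and 1 rose, and the list's median log2 fold change was -0.23, -0.24 and -0.17. Over all tested genes, 12.9%, 11.1% and 2.25% fell and 13.3%, 11.3% and 3.21% rose in these comparisons, with medians of 0.01, 0.01 and 0.00. Prlr, the prolactin receptor, stood at 9.08 to 24.9 CPM in BMP4-TGFB2, 17.6 to 34.4 in TGFB2, 69.0 to 153 in BMP4 and 152 to 193 in NT cells. It changed by -3.33 ± 0.39 with both ligands (adjusted p = 0.000133) and -2.80 ± 0.38 with TGFB2 (adjusted p = 0.000447), and by -0.54 ± 0.36 with BMP4 (adjusted p = 0.469), where the BMP4 and NT libraries overlapped. Its kinase Jak2 did not pass in any of the 3 comparisons, nor did the glucocorticoid receptor Nr3c1, at 55.9 to 67.0 CPM in BMP4-TGFB2 and 58.7 to 69.8 CPM in NT cells.

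Stat5a, which carries the prolactin signal to milk genes, stood at 9.95 to 15.6 CPM in BMP4-TGFB2, 13.7 to 18.1 in TGFB2, 17.2 to 22.8 in BMP4 and 36.8 to 39.7 CPM in NT cells, so that the BMP4 libraries overlapped the TGFB2 ones and NT lay above all ligand groups. It fell by 1.52, 1.33 and 0.87 on the log2 scale in BMP4-TGFB2, TGFB2 and BMP4 cells (adjusted p = 0.000150, 0.000441 and 0.018). Stat5b, its close relative, fell by 0.69 with both ligands and by 0.77 with TGFB2, and gave -0.33 with BMP4 (adjusted p = 0.264). The STAT5 target genes Cish and Socs2, feedback inhibitors of cytokine signalling, changed by -1.0 and -2.30 with both ligands and -1.02 and -2.46 with TGFB2, all passing, and by -0.78 and -1.26 with BMP4, neither passing.

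Elf5, the ETS factor that specifies secretory alveolar cells, had the largest fall among the regulators named for both TGFB2 comparisons. It stood at 5.20 to 10.3 CPM in BMP4-TGFB2, 10.9 to 17.6 in TGFB2, 49.6 to 85.6 in BMP4 and 163 to 246 CPM in NT cells, with no overlap between any groups. Its log2 fold change was -4.73 ± 0.32, -3.91 ± 0.31 and -1.49 ± 0.28 against NT (adjusted p = 4.66e-06, 1.85e-05 and 0.0117). The difference of BMP4-TGFB2 from TGFB2 was -0.81 ± 0.29 and did not pass (adjusted p = 1). Ehf, another epithelial ETS factor, and Nfib, a nuclear factor I protein that binds milk gene promoters, fell by 1.96 and 1.98 with both ligands and by 1.84 and 1.55 with TGFB2; with BMP4, Ehf fell by 0.84 and Nfib did not pass. Socs3, a brake on cytokine signalling, rose by 1.41 with both ligands and by 1.5 with TGFB2.

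Other named regulators also changed. Nrg1, an alveolar growth factor, fell by 3.08, 2.65 and 2.72 in BMP4-TGFB2, TGFB2 and BMP4 cells, and Tnfrsf11a, the RANK receptor, by 2.81, 2.46 and 2.09. Id2, needed for alveolar development in mice, fell by 1.21 with TGFB2. It did not pass with both ligands (-0.15, adjusted p = 0.535) or with BMP4 (0.42, adjusted p = 0.178). Between BMP4-TGFB2 and TGFB2 cells, Id2 changed by 1.06 ± 0.16 and did not pass (unadjusted p = 3.8e-05, adjusted p = 0.212). Wnt4, a progesterone target in the mammary gland, rose by 3.29 ± 0.70 with BMP4 (adjusted p = 0.0201), at 119 to 471 CPM in BMP4 cells against 23.9 to 38.9 CPM in NT cells.

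**Figure D4:**
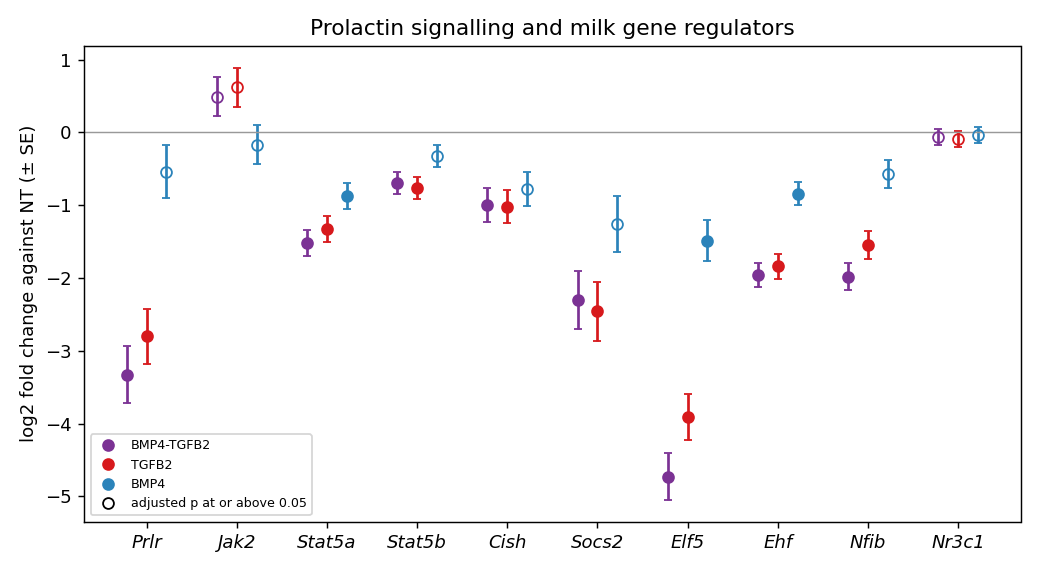
Log2 fold change against NT with SE for 10 regulators, with BMP4-TGFB2, TGFB2 and BMP4 from left to right at each gene and 3 libraries per group. Filled points passed at an adjusted p under 0.05; Elf5 and Prlr fall furthest with TGFB2, alone or with BMP4, and Jak2 and Nr3c1 have open points throughout.

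In a list of 43 other milk, secretion and milk fat genes, 38 were tested. With both ligands 20 fell and 4 rose, with TGFB2 18 fell and 4 rose, and with BMP4 5 fell and 1 rose, with list medians of -1.18, -1.03 and -0.40. Among all tested genes 12.9% fell and 13.3% rose with both ligands, 11.1% fell and 11.3% rose with TGFB2, and 2.25% fell and 3.21% rose with BMP4, at medians of 0.01, 0.01 and 0.00. Ccl28, a chemokine that draws IgA plasma cells to the mammary gland, fell by 6.41, 6.39 and 3.19 in BMP4-TGFB2, TGFB2 and BMP4 cells. Wfdc18, a whey acidic protein relative, fell by 4.67 with both ligands and 4.08 with TGFB2, and Slc34a2, a phosphate transporter, by 4.32, 3.75 and 1.66 in BMP4-TGFB2, TGFB2 and BMP4 cells. Kit, a receptor of luminal progenitors, fell by 3.68 with both ligands and 4.30 with TGFB2, and Cd14, a lipopolysaccharide receptor also found in milk, by 2.42 and 1.85. Lpo, the milk lactoperoxidase, fell by 4.50, 5.23 and 4.26 in BMP4-TGFB2, TGFB2 and BMP4 cells. Muc15, a milk fat globule mucin, fell by 3.01, 3.09 and 1.67 in the same order. Trf, transferrin, fell by 2.09 with both ligands and 2.58 with BMP4, and did not pass with TGFB2 (-0.81, adjusted p = 0.0842).

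Clu, clusterin, a secreted chaperone, went the other way. It stood at 7000 to 10065 CPM in BMP4-TGFB2, 6452 to 9182 in TGFB2, 1916 to 2020 in BMP4 and 452 to 656 CPM in NT cells. Its log2 fold change was 4.06 ± 0.21, 3.87 ± 0.21 and 1.88 ± 0.19 (adjusted p = 1.56e-06, 2.43e-06 and 0.000512), and it was the 1 gene of the list that rose with BMP4. Aldh1a3, Plin2 and B4galt1 made up the other risers with both ligands (3.43, 1.42 and 0.58) and with TGFB2 (3.73, 1.42 and 0.61). Plin2 coats lipid droplets, and B4galt1 is the catalytic subunit of lactose synthase, whose regulator Lalba was at or under 1 count in these libraries.

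The summed level of basal markers was higher in the ligand groups. The 13 basal and myoepithelial markers summed to 812 to 1060 CPM in BMP4-TGFB2, 644 to 834 in TGFB2, 1052 to 1365 in BMP4 and 205 to 485 CPM in NT cells. Of these, Krt14 alone reached 425 to 939, 339 to 584, 961 to 1308 and 172 to 402 CPM in the same order of groups. The sum was higher in every ligand-treated library than in any NT library, and the BMP4-TGFB2 and BMP4 ranges overlapped narrowly. Of 11 basal markers tested, 3 rose with both ligands (Krt14, Krt17 and Procr), 1 with TGFB2 (Procr) and 1 with BMP4 (Krt14). In these comparisons 0 fell, where 13.3%, 11.3% and 3.21% of all tested genes rose and 12.9%, 11.1% and 2.25% fell. Krt14 had a log2 fold change of 0.71 with TGFB2 (adjusted p = 0.167), and Trp63, a defining basal factor, gave -2.07, -2.48 and -0.92 in BMP4-TGFB2, TGFB2 and BMP4 cells, passing in none. The part of the basal markers in the members' falls was not tested.

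The genes whose pattern was most like that of the members, by Pearson's r over the 12 libraries with the mean standardised log2 CPM of the 5 tested members, were Gphn (r = 0.987), Ogfrl1 (0.984), Lap3 (0.978), Wwc1 (0.977), Ccl28 (0.977) and Gfpt1 (0.976), among 10171 candidates. These r values rest mainly on the group differences. Gphn, gephyrin, averaged 13.0 ± 1.89 CPM in BMP4-TGFB2, 13.2 ± 2.12 in TGFB2, 29.7 ± 4.68 in BMP4 and 66.0 ± 2.99 CPM in NT cells (SD, n = 3). Ogfrl1 averaged 13.4 ± 0.361, 16.3 ± 1.78, 49.2 ± 15.4 and 215 ± 48.4 CPM in the same order of groups. The ranges of Gphn and Ogfrl1 were thus far smaller than those of the members. That of Ccl28 was wider and closer to the members, at 1.95 ± 1.09, 2.00 ± 0.517, 18.5 ± 14.1 and 169 ± 92.0 CPM.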

How the data were processed

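RNA from oligo(dT)-enriched libraries was counted in 12 libraries of PYMT cells, in 4 groups of 3. The submitters' processing notes name Salmon 1.2.1, STAR 2.7.5b, bcl2fastq 2.17 and the build GRCm38.p6, without roles or settings. The authors deposited estimated counts per gene. Whole numbers made up 82.9% of them, and rounding to whole numbers moved the total by 0.000361%. The deposited TPM values, scaled by the authors for length and depth, were used for levels between genes. A deposited normalized table was not used. The deposited sample sheet gives 1 sequencing batch and an unstranded library type, so a gene and an antisense partner are not told apart by strand.

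Here, CPM was computed over library totals. Genes passing filterByExpr of edgeR 4.0.16 (minimum count 10; 15319 of 54347 genes, 99.9% of counts) were fitted by the quasi-likelihood method with TMM scaling (factors 0.971 to 1.03) in R 4.3.3, in 1 model of 4 groups. Calls used a Benjamini-Hochberg adjusted p under 0.05. The fit was tested on simulated data. Alternatives used RLE factors, no filter, DESeq2 1.42.0, limma 3.58.1 on log2(TPM + 0.1), the replicate block, fewer groups and left-out libraries. No pair of libraries agreed within counting noise (chi-square per degree of freedom at least 18.9).

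Same-numbered libraries deviated together: correlations were 0.16 to 0.44 for BMP4 and NT, 0.23 to 0.50 for BMP4-TGFB2 and TGFB2, 0.15 to 0.35 for BMP4-TGFB2 and BMP4, and 0.15 to 0.35 for BMP4 and TGFB2, all over 0.1, so the numbers pair those groups. Correlations were 0.08 to 0.30 for TGFB2 and NT and 0.03 to 0.23 for BMP4-TGFB2 and NT, positive but not all over 0.1. By this measure neither pairing nor its absence was shown for these groups. Libraries of all 4 groups did separate by replicate number on the second principal component.

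The members and gene lists were chosen with earlier results of these data known. All members are named. From the lists, 8 regulators and the 6 genes with the smallest passing p per ligand comparison against NT are named, with every filtered-in casein neighbour and the 6 genes most like the members (mean log2 CPM of at least 2). Genes that spell out a count of 5 or fewer, such as Socs3, Aldh1a3, Plin2 and B4galt1, were named after their values were seen, as were the cell type markers named singly. One regulator that the rule would name is not reported here. Coordinates are from the GENCODE annotation of GRCm38.p6.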

Additional observations from a re-analysis of the deposited data

Results flagged for a closer look

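For 3 members the effect of TGFB2 differed between cells that also received BMP4 and cells that did not, by the interaction term of edgeR. The TGFB2 effect was less negative in the presence of BMP4 by 4.89 for Csn1s1 (adjusted p = 0.0249), by 6.47 for Csn3 (adjusted p = 0.0168) and by 2.57 for Ltf (adjusted p = 0.0499), all on the log2 scale. With BMP4, TGFB2 moved Csn1s1, Csn3 and Ltf by -2.56, -0.91 and -4.25, and without BMP4 by -7.45, -7.38 and -6.82. BMP4-TGFB2 and TGFB2 libraries overlapped for each of these genes. The Csn1s1 and Csn3 levels that the product of the single ratios gives, 0.0911 and 0.0127 CPM, lie at or below 3 counts per library, whereas that of Ltf, 16.6 CPM, does not. These calls were not stable: 0 of the 3 passed without the replicate 1 libraries, and over 18 alternatives the Ltf call was lost in 14, the Csn1s1 call in 10 and the Csn3 call in 3.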

How the results depend on the processing

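Of 480 alternative values for 35 member fold changes, 433 kept their direction and their side of the threshold, 39 no longer passed, 8 newly passed and 0 reversed. Every member call of TGFB2 against NT and of BMP4-TGFB2 against NT held under each alternative run. Without all replicate 1 libraries, 2 members passed in BMP4 against TGFB2 (4 in the full fit) and 0 in the interaction (3 in the full fit). Leaving out single libraries gave 0 to 3 members in the interaction. Lalba, tested without the filter or with some libraries left out, raised the count of members to 6 for TGFB2 and for BMP4-TGFB2 against NT. With libraries left out, it passed the filter only through the NT libraries, where it was highest. It could then hardly come out other than as a fall, so those calls add no support. The motif with 4 free bases matched 1 member, against 3 with 3 free bases. The cause of these changes was not tested, and the left-out fits also held fewer libraries.

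With the replicate number as a block, the genes called were 5798 (3424 without it) for TGFB2 against NT, 2356 (835) for BMP4 against NT, 6342 (4007) for BMP4-TGFB2 against NT, 6 (0) for BMP4-TGFB2 against TGFB2, 3476 (1412) for BMP4-TGFB2 against BMP4, 2998 (1200) for BMP4 against TGFB2 and 280 (24) for the interaction. Among members the block changed the calls of Pigr in BMP4-TGFB2 against BMP4 and in the interaction, and no other. In those comparisons in the same order, counts that moved by over 1.5 times were, with DESeq2, 1562 for BMP4 against NT, 51, 2219, 1977 and 295 for the last 4; without the filter, 23 for BMP4-TGFB2 against TGFB2 and 173 for the interaction; with limma on TPM, 2 and 13 for the same 2; and with only the compared groups, 554 for BMP4 against NT and 932 for BMP4-TGFB2 against BMP4. Without replicate 1 libraries the interaction had 6 calls. Leaving out single libraries gave 2011 to 3629, 292 to 739, 2519 to 4195, 0 to 1, 655 to 1304, 558 to 1134 and 0 to 26 calls. At 28543062 to 42167651 counts per library, members under 3 counts cannot be told from 0.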
